A study of Mus musculus with 27 samples.

Results

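The 10 genes Ifit1, Ifit2, Ifit3, Isg15, Usp18, Rsad2, Oas1g, Oas3, Oasl1 and Oasl2 code for antiviral effectors of the interferon response. They were taken by gene symbol, and all 10 were among the 9996 genes of the deposited table. Their RNA was followed in neutrophils and macrophages that had been sorted by flow cytometry out of mammary tumours of K14cre;Cdh1F/F;Trp53F/F mice. In this model the keratin 14 promoter drives a Cre recombinase that deletes floxed Cdh1 (E-cadherin) and Trp53 (p53) in epithelium, and all groups share these alleles. Control mice received a control antibody. The other groups received anti-CSF-1R, which targets the receptor through which macrophages sense their growth factor CSF-1, cisplatin with the control antibody (here cisplatin), or cisplatin with anti-CSF-1R (here the combination). There were 15 neutrophil libraries (control 4, anti-CSF-1R 4, cisplatin 3, combination 4) and 12 macrophage libraries (4, 2, 4 and 2). Cisplatin-treated mice were examined 1 day after their second injection and cisplatin-naive mice at a tumour size of 100 mm2, so drug and endpoint cannot be told apart. Separate mice are not stated for the libraries, so the p-values reflect only how far these samples spread, and that spread may be technical.

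Interferons bind receptors whose JAK kinases activate transcription factors. A complex that contains IRF9 binds the interferon-stimulated response element (ISRE) in front of antiviral genes, and the gamma-activated site (GAS) is the other main element of the response. IFIT proteins bind viral RNA and hinder its translation. ISG15 is a ubiquitin-like protein that is conjugated to other proteins, and USP18 removes it again and dampens signalling at the receptor. RSAD2 (viperin) makes a nucleotide analogue that ends viral RNA chains. OAS enzymes sense double-stranded RNA and make oligoadenylates, a signal that leads to RNA decay, and the OASL proteins are their relatives with ubiquitin-like domains. In tumours, myeloid cells are a common site of this response.

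The genes lie in few places of the genome (GENCODE annotation of GRCm38, the assembly of build mm10). Ifit2 (chr19:34550694-34576419), Ifit3 (chr19:34583531-34588731) and Ifit1 (chr19:34640871-34650009) follow each other on the plus strand of chromosome 19. Oasl2 (chr5:114896936-114912234) and Oasl1 (chr5:114923240-114937915) are neighbours on the plus strand of chromosome 5, and Oas3 (chr5:120753098-120777661) and Oas1g (chr5:120876142-120887613) lie on its minus strand. Isg15 (chr4:156199424-156200818, minus), Usp18 (chr6:121245906-121270917, plus) and Rsad2 (chr12:26442746-26456452, minus) stand apart. Reads of the IFIT and OAS1 genes are uncertain, because close copies in the same clusters can share them.

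Promoter windows of 300 bases (250 before to 50 after the start, RefSeq, GRCm38.p6) were found for 9 of the 10 genes, and Usp18 had no entry. The ISRE core GAAANNGAA was searched on both strands. It occurred in 6 of the 9 genes, against 9.76% of all 27025 genes with a window and 8.56% of all 32851 windows. Ifit1, Ifit3 and Isg15 each held 3 matches, Oas1g and Oas3 held 2, and Rsad2 held 1. The first bases of these matches lay between 155 and 12 bases before the start, and neighbouring matches overlapped in Ifit1, Isg15, Oas1g and Oas3. Windows with 2 or more matches made up 0.624% of all windows. Ifit2 (2 windows), Oasl1 and Oasl2 held no match. The GAS core TTCNNNGAA occurred in 1 of the 9 genes, Ifit2, at 241 bases before the start and away from any ISRE match. It occurred in 9.55% of all genes with a window and in 8.30% of all windows. These are matches of letters, not measured binding sites. The stretches from 160 bases before the start to the start are shown for 4 genes whose calls are described in the results, to let the crowded matches of Ifit1, Ifit3 and Oas3 be set beside the single match of Rsad2, together with Isg15, which has the closest run of matches, and with Oasl2, which passed the same test and holds none. Capitals mark the ISRE core on either strand.
Ifit1, chr19:34640729-34640888, plus strand: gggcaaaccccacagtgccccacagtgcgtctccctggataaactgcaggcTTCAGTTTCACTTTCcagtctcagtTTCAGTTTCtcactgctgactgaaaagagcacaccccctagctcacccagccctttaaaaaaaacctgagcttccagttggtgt
Ifit3, chr19:34583369-34583528, plus strand: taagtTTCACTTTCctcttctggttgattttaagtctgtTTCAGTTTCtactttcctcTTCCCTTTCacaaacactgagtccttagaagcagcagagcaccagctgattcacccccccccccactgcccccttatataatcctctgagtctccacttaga
Isg15, chr4:156200819-156200978, minus strand: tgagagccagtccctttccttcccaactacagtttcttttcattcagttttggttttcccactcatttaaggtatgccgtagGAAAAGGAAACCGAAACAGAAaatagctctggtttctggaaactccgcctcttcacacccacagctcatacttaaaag
Rsad2, chr12:26456453-26456612, minus strand: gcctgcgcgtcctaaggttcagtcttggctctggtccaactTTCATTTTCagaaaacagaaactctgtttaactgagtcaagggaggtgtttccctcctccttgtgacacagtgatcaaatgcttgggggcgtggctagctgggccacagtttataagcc
Oas3, chr5:120777660-120777819, minus strand: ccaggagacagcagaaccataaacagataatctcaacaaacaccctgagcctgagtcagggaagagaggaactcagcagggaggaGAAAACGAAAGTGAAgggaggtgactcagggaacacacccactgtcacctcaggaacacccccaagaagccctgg
Oasl2, chr5:114896774-114896933, plus strand: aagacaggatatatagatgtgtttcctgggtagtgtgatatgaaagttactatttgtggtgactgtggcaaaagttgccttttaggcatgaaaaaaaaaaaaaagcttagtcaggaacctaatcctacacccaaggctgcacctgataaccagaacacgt

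**Figure D1:**
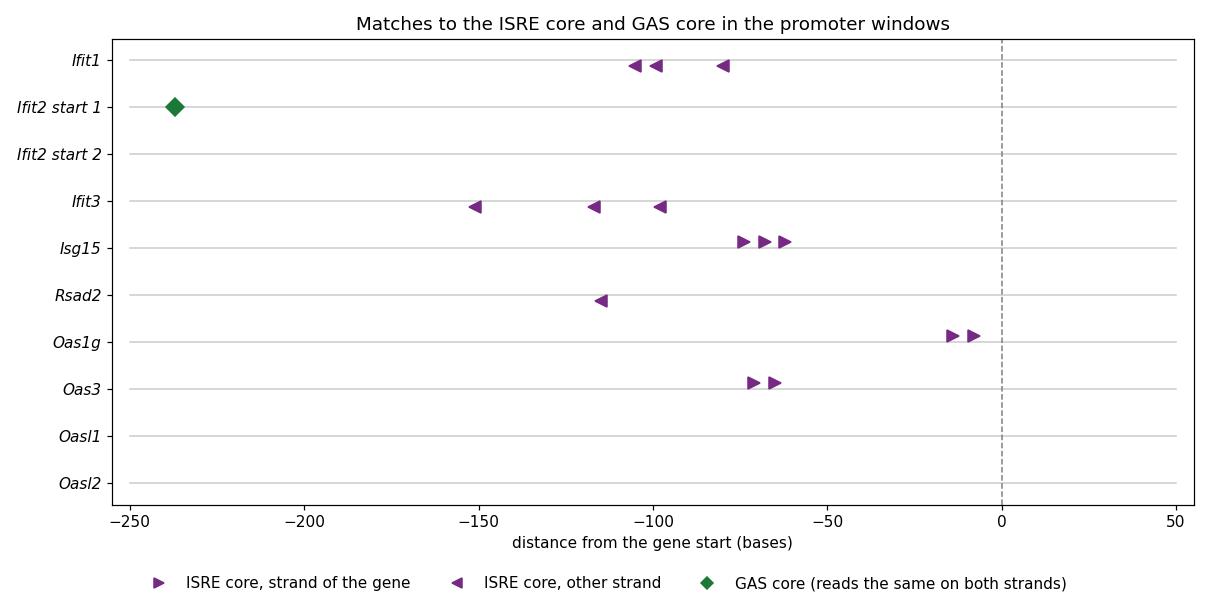
Positions of ISRE core (triangles, pointing along the strand) and GAS core (diamond) matches in the promoter window of each gene; the horizontal axis is the distance from the gene start in bases. All matches lie before the start, and those of Ifit1, Ifit3, Isg15, Rsad2 and Oas3 fall between 155 and 66 bases before it.

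Values are the authors' normalised read counts, that is, reads divided by a size factor of the library. Most values under 1000 had lost their decimal point in the table. The place of the point was restored by requiring a whole number of reads. Where several places remained, a model of each gene over the groups chose among them. The model used the treatment groups that were later compared, so restored values and their spread are not independent of the tests. Of the 270 values of the 10 genes, 162 allowed a single place, 44 were restored by the model and 64 were uncertain and left out of means and tests. The uncertain values were unevenly spread: 17 of 40 in control macrophages and 16 of 40 in control neutrophils, but 2 of 20 and 4 of 40 in the combination groups. Kept values, whether of a single place or restored by the model, are called certain here and below. In control macrophages, Ifit1, Ifit2, Ifit3, Usp18, Oas3 and Oasl1 had certain values in replicates 1 and 4 alone. For Ifit1 and Usp18 each of these was restored by the model, and for the others replicate 1 was. At its other place, each restored value of Ifit1 and Usp18 would lie above the combination macrophages. Oas3 and Oasl2 in neutrophils allowed a single place in every library. A group was said to lie above another at every place where this held whichever whole-read place each value took, restored values included. The listed genes held 998301 to 3283582 reads in a library of neutrophils, and 1298269 to 7498096 in one of macrophages. On the first principal component of the neutrophils, combination replicate 2 (-45.0) and cisplatin replicate 2 (-28.4) stood apart from the other libraries (-8.82 to 19.9).

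**Figure D2:**
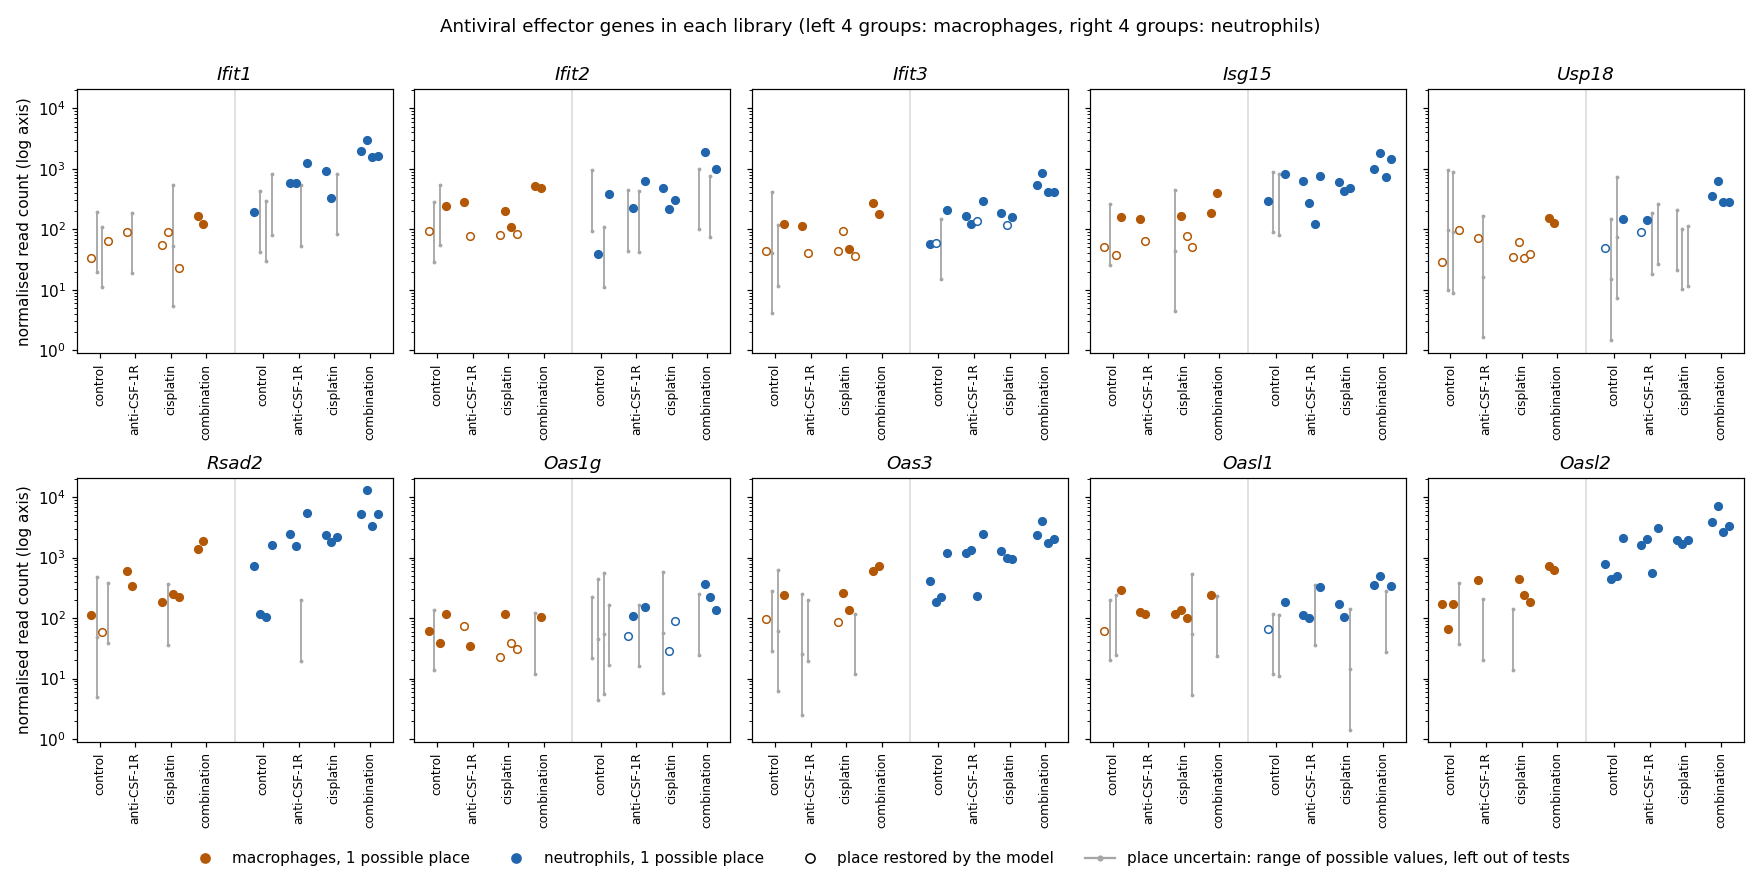
Normalised read count (log axis) of each gene in each library, by treatment, with macrophages on the left and neutrophils on the right of each panel; filled points allow a single place of the decimal point, open points were restored by the model and grey lines span the possible values of uncertain libraries. In neutrophils Rsad2 ranges from 104 in a control library to 13001 in combination replicate 2.

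Neutrophils of combination-treated tumours were compared with those of control tumours. Among the groups with a certain value, the mean was highest in the combination for each gene, but Oas1g had no certain control value and Usp18 no certain cisplatin value. Ifit1, Ifit3, Rsad2, Oas3 and Oasl2 rose, 5 of the 9 genes that could be tested (limma over all genes, adjusted p below 0.05), where 0.581% of all genes tested rose. The log2 fold changes of the 9 genes were all positive, with a median of 2.56, against 0.02 over all genes. Ifit1, Rsad2, Oas3 and Oasl2 lay above control at every place, which held for 1.59% of all 9996 genes.

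Rsad2 stood at 717, 115, 104 and 1614 in the 4 control libraries and at 5250.1, 13001, 3386 and 5199.5 in the 4 combination libraries. Each combination library was above the highest control, although the controls themselves differed by 15.6 times. The log2 fold change was 4.09 ± 0.68 (SE, adjusted p = 0.0224, limma). Oas3, the largest of the OAS enzymes, stood at 416, 188, 224 and 1204 in control and at 2374, 3995, 1762 and 2000.2 in the combination libraries. The groups did not overlap (log2 fold change 2.65 ± 0.58 SE, adjusted p = 0.0408, limma). Oasl2 stood at 778, 436, 490.3 and 2111 in control and at 3872, 7115, 2654 and 3322 in the combination libraries. Here too the groups did not overlap (log2 fold change 2.36 ± 0.49 SE, adjusted p = 0.0382, limma). In Rsad2, Oas3 and Oasl2 control replicate 4 was the highest control and came nearest to the combination.

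Ifit1 stood at 1962, 2939.8, 1563 and 1614 in the combination libraries and at 191 in the 1 control library with a certain value. The other controls stood at 429 or 42.9, at 296 or 29.6 and at 815 or 81.5. Even with the higher value in each control, no control reached the lowest combination library, and the ratio of group means lay between 4.67 and 23.4. The fitted log2 fold change, with the spread of the lone control taken from the other groups, was 3.35 ± 0.57 (SE, adjusted p = 0.0235, limma). Ifit3 stood at 538, 862, 407 and 417 in the combination and at 56.3, 59.1 and 209 in 3 controls, with the other at 148 or 14.8 (log2 fold change 2.56 ± 0.41 SE, adjusted p = 0.0194, limma). The value of 59.1 was placed by the model, and at another possible place, 591, it would lie within the combination range.

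The remaining genes did not pass. Ifit2 had a log2 fold change of 3.49 ± 0.82 (SE, adjusted p = 0.0718, limma) over 2 certain values a group. Usp18 had 2.09 ± 0.45 (SE, adjusted p = 0.0574) and Oasl1 had 1.82 ± 0.51 (SE, adjusted p = 0.118, limma). Isg15, which passed in no neutrophil comparison, stood at 991, 1859, 738 and 1441 in the combination libraries. Its controls stood at 295 and 832 and, where uncertain, at 902 or 90.2 and 814 or 81.4, so that the groups overlapped (log2 fold change 1.25 ± 0.59 SE, adjusted p = 0.339, limma). Oas1g had no certain control value and could not be tested.

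These neutrophil calls depended on single libraries. The count of 5 became 0 without combination replicate 2 or control replicate 2, 1 without combination replicate 4, control replicate 1 or control replicate 3, 2 without combination replicate 1, and 8 without control replicate 4. Without the 2 libraries that stood apart it was 0 (adjusted p between 0.0741 for Ifit1 and 0.183 for Oas3 among the 5 genes), while log2 fold changes stayed between 2.07 for Oasl2 and 3.71 for Rsad2. With places restored without regard to the groups, Rsad2 alone passed (adjusted p = 0.0471). Monocyte markers moved in the same direction: all 5 were in the table and had positive log2 fold changes (median 1.03, 0 past the threshold), with a summed level of 2131 to 8167 in the combination and 1075 to 1381 in control. The 9 neutrophil markers in the table, of 10 listed, summed to 36817 to 99672 and 23978 to 42757. Marker sums, here and below, take each value at its most probable place, uncertain values included. None of these markers was at the lowest listed value in every library of a group, and their part in the result was not tested. In these sorted bulk samples, fewer cells of a type and less RNA per cell cannot be told apart.

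**Figure D3:**
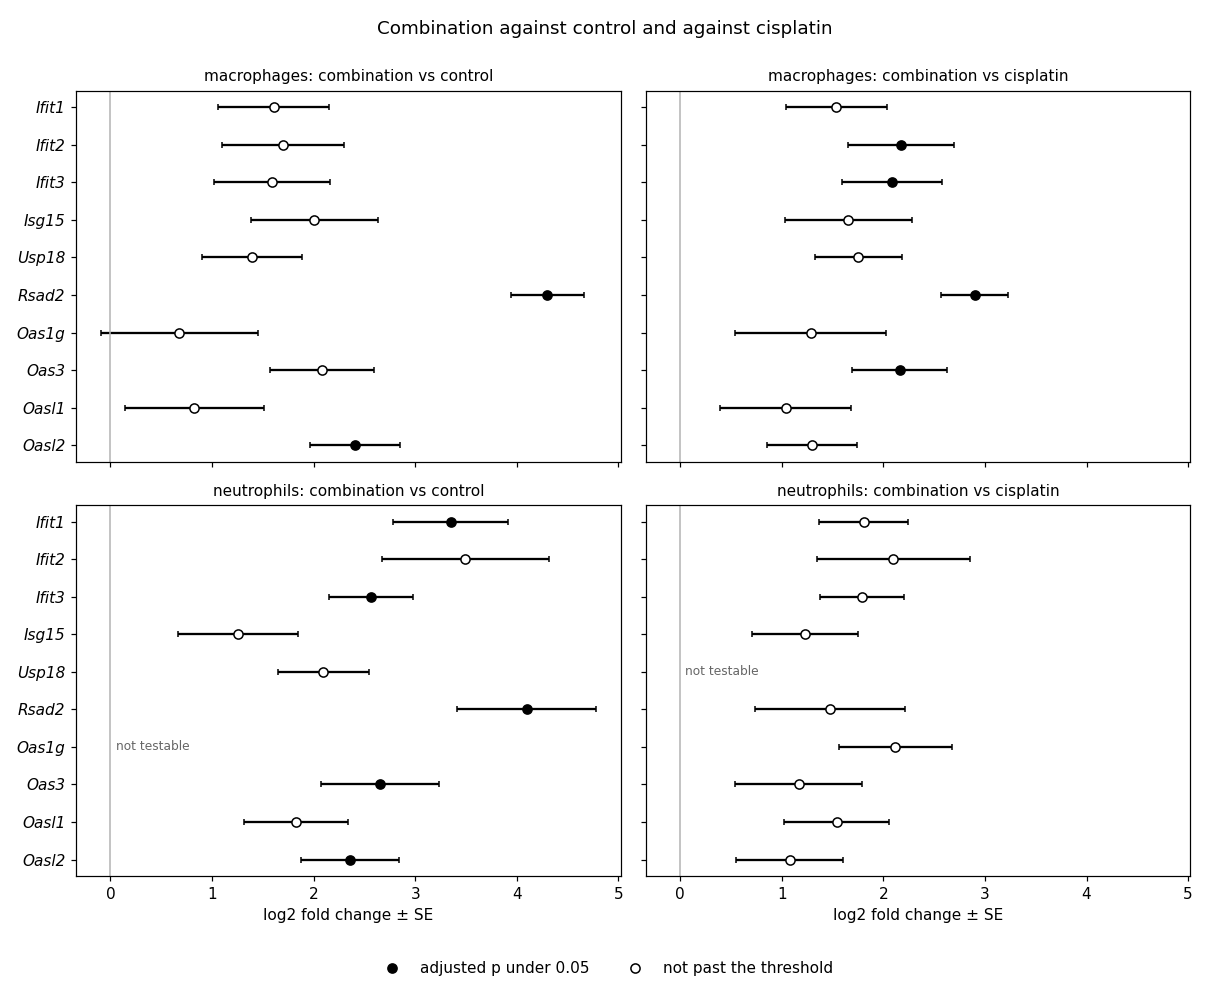
Log2 fold change ± SE (limma) of each gene for the combination against control (left) and against cisplatin (right) in macrophages (top) and neutrophils (bottom); filled points passed an adjusted p of 0.05. All points lie right of 0, and filled points number 2, 4, 5 and 0 in the order of macrophages against control and cisplatin, then neutrophils against control and cisplatin.

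Against cisplatin alone, which asks what anti-CSF-1R adds in cisplatin-treated tumours, the combination neutrophils lay above all cisplatin neutrophils at every place in 7 of the 10 genes, which held for 0.9% of all genes. These were Ifit1, Ifit3, Isg15, Usp18, Rsad2, Oas3 and Oasl2. Rsad2 stood at 2373, 1838 and 2192 in the cisplatin libraries, and Oasl2 at 1951, 1689 and 1985. Both were even across the cisplatin libraries and below the lowest combination library. The ratios of group means were 3.14 for Rsad2, 2.26 for Oasl2, 2.35 for Oas3 and 2.46 for Isg15. Of the 9 genes that could be tested (Usp18 had no certain cisplatin value), 0 passed by limma, where 0.022% of all genes tested were higher. At an unadjusted p below 0.05 there were 6, limma-voom on restored reads called 0, and the smallest adjusted p was 0.176 (Ifit3, log2 fold change 1.79 ± 0.41 SE). Both comparisons share the combination libraries, so they are not independent.

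Neither treatment given alone brought a gene past the threshold in neutrophils. With anti-CSF-1R alone, neutrophil Rsad2 stood at 2434.5, 1574 and 5549, and at 197 or 19.7 in replicate 3. Replicate 3 was the lowest of the 4 in Ifit1, Isg15, Rsad2, Oas3 and Oasl2, and replicate 4 the highest in these genes and in Ifit2 and Ifit3. Oas3 shows the width of this group, at 1182, 1314, 234 and 2420.0. Against control the log2 fold changes had a median of 0.99 over 9 genes, from -0.47 (Isg15) to 3.01 (Rsad2, fitted without replicate 3). Of these, 0 passed (limma, 4 at an unadjusted p below 0.05, 0 by limma-voom, 0.0219% of all genes higher), and 1 passed without control replicate 4. None of the 10 lay above control at every place, where 0.49% of all genes did. For cisplatin against control the median was 1.34 over 8 genes and 0 passed (limma, 4 at an unadjusted p below 0.05, 0 by limma-voom, 0.0439% of all genes higher). Rsad2 lay above control at every place there, as did 1.24% of all genes. By mean over certain values, neutrophil Rsad2 stood in the order control (638), cisplatin (2135), anti-CSF-1R (3186) and combination (6709). The last 3 overlapped with their neighbours in that order. The anti-CSF-1R mean left out replicate 3, at 197 or 19.7, and would be lower with either value, as would the log2 fold change of 3.01. With either value the mean of the values themselves would stay above that of cisplatin. On the log2 scale of the tests, however, the mean would lie below that of cisplatin, so the order depends on the scale. Combination against anti-CSF-1R alone gave a median of 1.38 over 10 genes, all positive, and again 0 passed (limma, 9 at an unadjusted p below 0.05, 0 by limma-voom, 0% of all genes). Ifit1 and Ifit3 were above anti-CSF-1R at every place, as were 0.64% of all genes.

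In macrophages, too, the mean over certain values was highest in the combination among the groups that had one, which for Oas3 left out anti-CSF-1R. Against cisplatin alone, Ifit2, Ifit3, Rsad2 and Oas3 rose, 4 of 10 genes, where 1.47% of all genes tested rose. The log2 fold changes of the 10 genes were all positive with a median of 1.71, against -0.01 over all genes, but Oas1g and Oasl1 changed sign in some settings given with the limits. Rsad2 and Oasl2 lay above cisplatin at every place, as did 3.48% of all genes.

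Macrophage Rsad2 stood at 1398 and 1884 in the 2 combination libraries, and at 182, 249 and 226 in cisplatin libraries with 1 more at 363 or 36.3. The lowest combination library was above any possible cisplatin value (log2 fold change 2.90 ± 0.33 SE, adjusted p = 0.00318, limma). Oas3 stood at 592 and 723 in the combination. The cisplatin libraries gave 86.4, 256 and 139, and 119 or 11.9, where 86.4 was placed by the model and could also be 864 (log2 fold change 2.16 ± 0.47 SE, adjusted p = 0.0413, limma). Ifit2 stood at 514 and 485 in the combination and at 79.8, 201, 109 and 82.6 with cisplatin. The lowest and the 82.6 were placed by the model and would be 798 and 826 at their other place (log2 fold change 2.18 ± 0.52 SE, adjusted p = 0.0462, limma). Ifit3 stood at 269 and 182 in the combination and at 43.6, 93.1, 47.1 and 36.2 with cisplatin, 3 of them placed by the model (log2 fold change 2.09 ± 0.49 SE, adjusted p = 0.0438, limma). Over all allowed places the ratio of group means ran from 6.44 to 9.47 for Rsad2 and from 1.91 to 5.33 for Oas3, but from 0.508 to 4.10 for Ifit3.

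Oasl2 stood at 724 and 617 in the combination, and at 447, 238 and 186 with cisplatin and 1 more at 140.3 or 14.0. The groups did not overlap, and the ratio of means lay between 2.65 and 3.03, but the test was not passed (log2 fold change 1.30 ± 0.44 SE, adjusted p = 0.137, limma). Usp18, at 153 and 129 against 34.7, 62.4, 33.1 and 39.4, had 1.75 ± 0.43 (SE, adjusted p = 0.0514, limma), with each cisplatin value placed by the model. Isg15, at 187 and 399 in the combination, had 1.66 ± 0.63 (SE, adjusted p = 0.165) and Ifit1, at 167 and 124, had 1.54 ± 0.50 (SE, adjusted p = 0.125, limma). Oas1g and Oasl1 had 1.28 and 1.04, each from 1 certain combination library.

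Against control, Rsad2 and Oasl2 rose in combination macrophages, 2 of 10 genes, where 1.26% of all genes tested rose, and both were above control at every place, as were 2.95% of all genes. Control Rsad2 stood at 111 and 59.9, with the uncertain libraries at 487, 48.7 or 4.87 and at 385 or 38.5. No possible control value reached the combination (log2 fold change 4.30 ± 0.36 SE, adjusted p = 0.000309, limma), and the ratio of means lay between 4.15 and 30.7. Oasl2 stood at 174, 66.5 and 169 in control, with 1 more at 379 or 37.9 (log2 fold change 2.41 ± 0.44 SE, adjusted p = 0.0206, limma). The median over the 10 genes was 1.65. This comparison and the one with cisplatin share the combination libraries.

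With anti-CSF-1R alone, macrophage Rsad2 stood at 598 and 346 and rose against control (log2 fold change 2.47 ± 0.36 SE, adjusted p = 0.00778, limma), the only called gene of 9 tested, where 1.32% of all genes rose. None of the 10 lay above control at every place, where 3.25% of all genes did. Over all places the ratio of means for Rsad2 ran from 1.19 to 8.82, and its call was lost with uncertain values at their highest (adjusted p = 0.402) or lowest place (adjusted p = 0.0794). Anti-CSF-1R replicate 2 differed from the other library of its group in mast cell markers, whose sum was 7357 against 8.78, and Rsad2 passed without it (adjusted p = 0.0328, limma). In both anti-CSF-1R libraries the monocyte markers (910.1 to 1226 against 302 to 870 in control, 2 of 5 higher, median log2 fold change 2.95) and eosinophil markers (65.2 to 94.9 against 3 to 18.5, 2 of 3 higher, median 4.15) summed above every control. Their part in the result was not tested. Oasl2, with 419 and 204 or 20.4, had 1.74 ± 0.56 (SE, adjusted p = 0.118, limma), and the other 7 lay between -0.34 (Oas1g) and 0.94 (Ifit1). Oas3 had no certain value in this group. For cisplatin against control the median was -0.14 over 10 genes and 0 passed (limma, 2 at an unadjusted p below 0.05, 0 by limma-voom, 0.163% of all genes higher), nor did any lie above control at every place, against 0.36% of all genes. Between the combination and anti-CSF-1R 0 of 9 passed (limma, 4 at an unadjusted p below 0.05, 0 by limma-voom, 0% of all genes). Rsad2, Oas3 and Oasl2 lay above anti-CSF-1R at every place, as did 3.76% of all genes.

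The macrophage counts also rested on few libraries. For combination against cisplatin the count of 4 was 0 without combination replicate 2, 1 without combination replicate 1 or cisplatin replicate 1, 3 or 4, and 7 without cisplatin replicate 2. Without combination replicate 2 the adjusted p of Rsad2 was 0.0665. For combination against control the count of 2 was 1 without either combination library and 6 without control replicate 4, and Rsad2 passed in each of these fits (adjusted p up to 0.00935, limma). With places restored without regard to the groups the counts were 1 and 2.

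**Figure D4:**
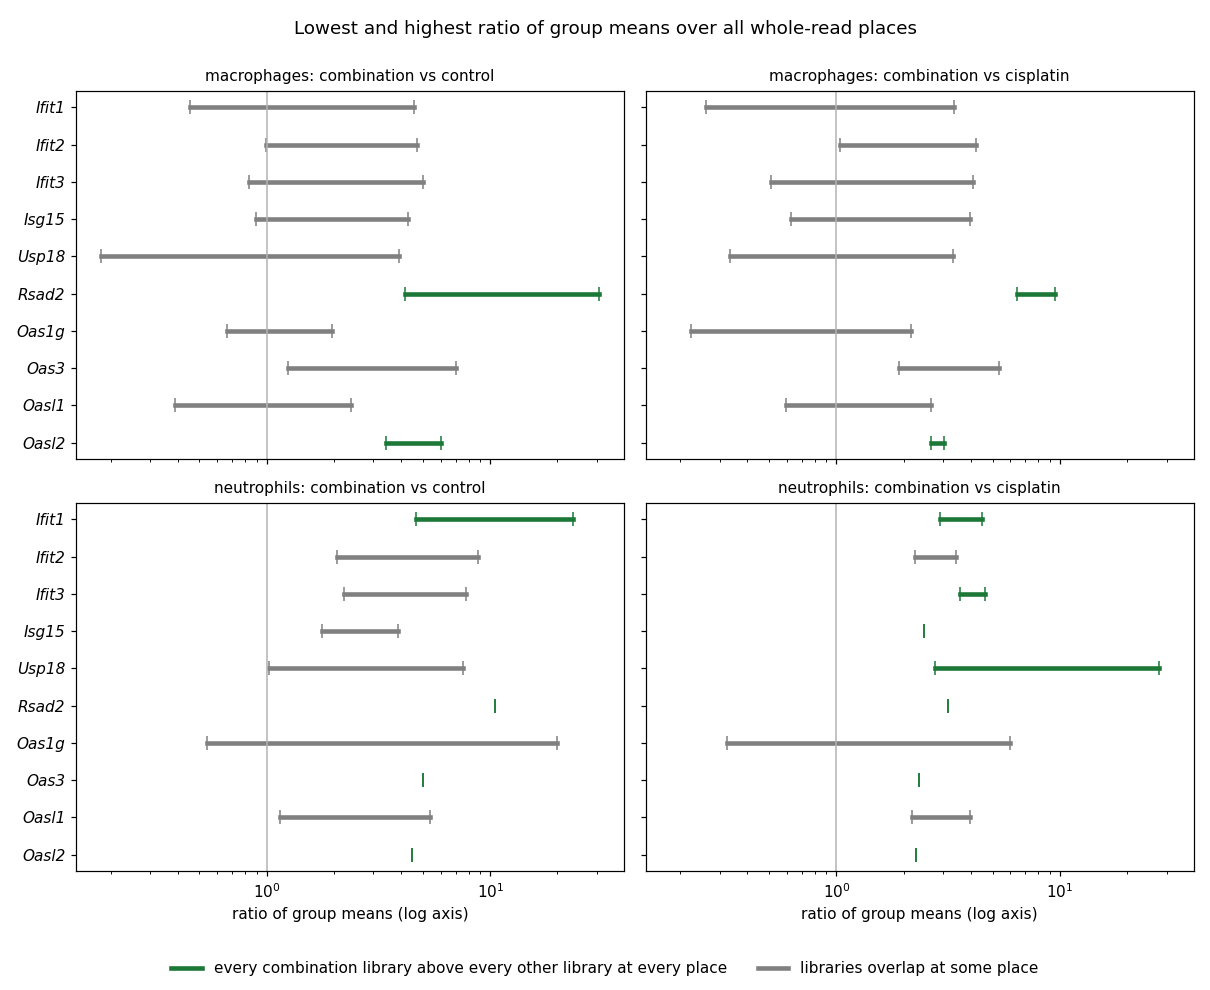
Lowest and highest possible ratio of group means (log axis) of the combination to control (left) or cisplatin (right) in macrophages (top) and neutrophils (bottom), over every whole-read place of each value; green bars mark genes in which all combination libraries lie above all others at every place. Rsad2 and Oasl2 are green in all 4 panels, while bars of Ifit3 in macrophages cross a ratio of 1.

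Markers of other cells moved with the macrophage combination. The 9 neutrophil markers in the table, of 10 listed, summed to 1346 to 1487 in combination macrophages, 191 to 370 with cisplatin and 250.3 to 1501 in control. Against cisplatin 4 of the 7 that could be tested rose (median log2 fold change 2.24), with Camp at the lowest listed value in all combination libraries and Ngp in all cisplatin libraries. The 5 monocyte markers summed to 846 to 2408 and 485 to 953, and 2 of 5 rose. Of the eosinophil markers, 3 of 5 listed were in the table and 2 of 3 rose, with sums of 27.7 to 208 and 3.48 to 6.67 and Ear2 at the lowest listed value in all cisplatin libraries. Of fibroblast markers 1 of 3 tested rose (4 of 4 in the table, sums of 63.2 to 287 and 21.0 to 62.1), and of endothelial markers 1 of 2 (2 of 3 in the table, 99.5 to 165 and 6.40 to 55.6). The 10 macrophage markers summed to 8469 to 9007 in the combination and 12614 to 18447 with cisplatin, and 3 of 9 tested fell. Against control, 4 of the 5 monocyte markers rose (sums of 302 to 870 in control) and 2 of 3 eosinophil markers, while of the neutrophil markers 0 of 7 rose and 1 fell, and of the macrophage markers 1 of 9 rose and 1 fell. The part of any of these markers in the result was not tested.

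Levels in macrophages were also set against those in neutrophils, as a percent of the neutrophil mean over certain values. In the combination the 10 genes stood at 7.19% (Ifit1) to 60.5% (Oasl1), and the 9 neutrophil markers at 1.03% to 5.84%. With anti-CSF-1R the members with a certain value in both cell types stood at 11.2% to 67.2% and the 8 markers with one at 0.612% to 9.71%. In control and with cisplatin the ranges overlapped. In control, Mmp9 stood at 18.5% and S100a8 at 5.18%, while Rsad2 stood at 13.4%, Oasl2 at 14.3% and Isg15 at 14.6%. With cisplatin, Camp, near the lowest listed value in both cell types, stood at 115%, Csf3r at 1.98%, Ifit1 at 8.86% and Rsad2 at 10.2%. Neutrophil markers rose with the members against cisplatin, and their part in the result was not tested.

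Ifit1, Isg15, Rsad2 and Oasl2 were called lower in macrophages than in neutrophils under each of the 4 treatments. The Ifit1 call rested on 1 certain neutrophil value in control and on 1 certain macrophage value with anti-CSF-1R. That macrophage value was placed by the model, as were the certain macrophage values of Ifit1 in control and with cisplatin. Over all places its ratio of means ran from 0.0740 to 3.71 in control and from 0.0622 to 1.23 with cisplatin. With anti-CSF-1R it ran from 0.0741 to 0.885. In control tumours these were the called genes, 4 of 9 tested, where 24.6% of all genes tested were lower. With anti-CSF-1R there were 5 of 9 (Ifit1, Ifit3, Isg15, Rsad2 and Oasl2, against 21.2%), with cisplatin 7 of 9 (Ifit1, Ifit2, Ifit3, Isg15, Rsad2, Oas3 and Oasl2, against 27.3%), and in the combination 7 of 10 (these without Ifit2 and with Usp18, against 23.7%). None of the 10 was called higher in macrophages, where 26.2%, 21.1%, 29% and 22.4% of all genes were, in the same order. In the combination all 7 called genes lay below neutrophils at every place, as did 8.05% of all genes. In control and with anti-CSF-1R this held for Oasl2 alone (5.6% and 7.71% of all genes), and with cisplatin for Rsad2, Oas3 and Oasl2 (7.16%).

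Ifit1 differed most in the combination, at 167 and 124 in macrophages against 1563 to 2939.8 in neutrophils, with a log2 difference of -3.76 ± 0.49 (SE, adjusted p = 1.01e-05, limma). Oasl2 differed by -2.61 ± 0.51 in control (SE, adjusted p = 0.000222), -1.86 ± 0.75 with anti-CSF-1R, where 1 macrophage value was certain (SE, adjusted p = 0.0485), -2.78 ± 0.55 with cisplatin (SE, adjusted p = 0.000187) and -2.56 ± 0.58 in the combination (SE, adjusted p = 0.00108, limma). Isg15 differed by -2.86 ± 0.68 in control (SE, adjusted p = 0.0015) and by -2.11 ± 0.65 in the combination (SE, adjusted p = 0.0109, limma). Oasl1 was called under no treatment: its log2 differences lay between -0.70 and 0.30, at adjusted p of 0.434 or more (limma). Rescaling the libraries by median ratios moved the median of all genes between the cell types by 0.09 to 0.17 and turned no member's direction. It ended the calls of Ifit3 (adjusted p = 0.0597) and Oasl2 (adjusted p = 0.0609) with anti-CSF-1R, of Ifit2 with cisplatin (adjusted p = 0.0679), and of Ifit3 (adjusted p = 0.0762) and Rsad2 (adjusted p = 0.0631) in the combination (limma).

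The counts between cell types fell when some libraries were left out. The control count of 4 was 2 without neutrophil replicate 1. The anti-CSF-1R count of 5 was 1 without macrophage replicate 2 or neutrophil replicate 4, 2 without neutrophil replicate 1 and 3 without macrophage replicate 1. The combination count of 7 was 2 without macrophage replicate 1 and 3 without macrophage replicate 2 or neutrophil replicate 2, while the cisplatin count stayed at 6 or 7. Rsad2 was lost in 3 of 8 such fits in control and in 5 of 6 in the combination, and Oasl2 in 4 of 5 with anti-CSF-1R. Of the 10 other settings, 3 ended the control call of Rsad2, 6 its combination call and 3 the anti-CSF-1R call of Oasl2. Ifit1 passed in each of these fits in the cisplatin and combination groups.

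**Figure D5:**
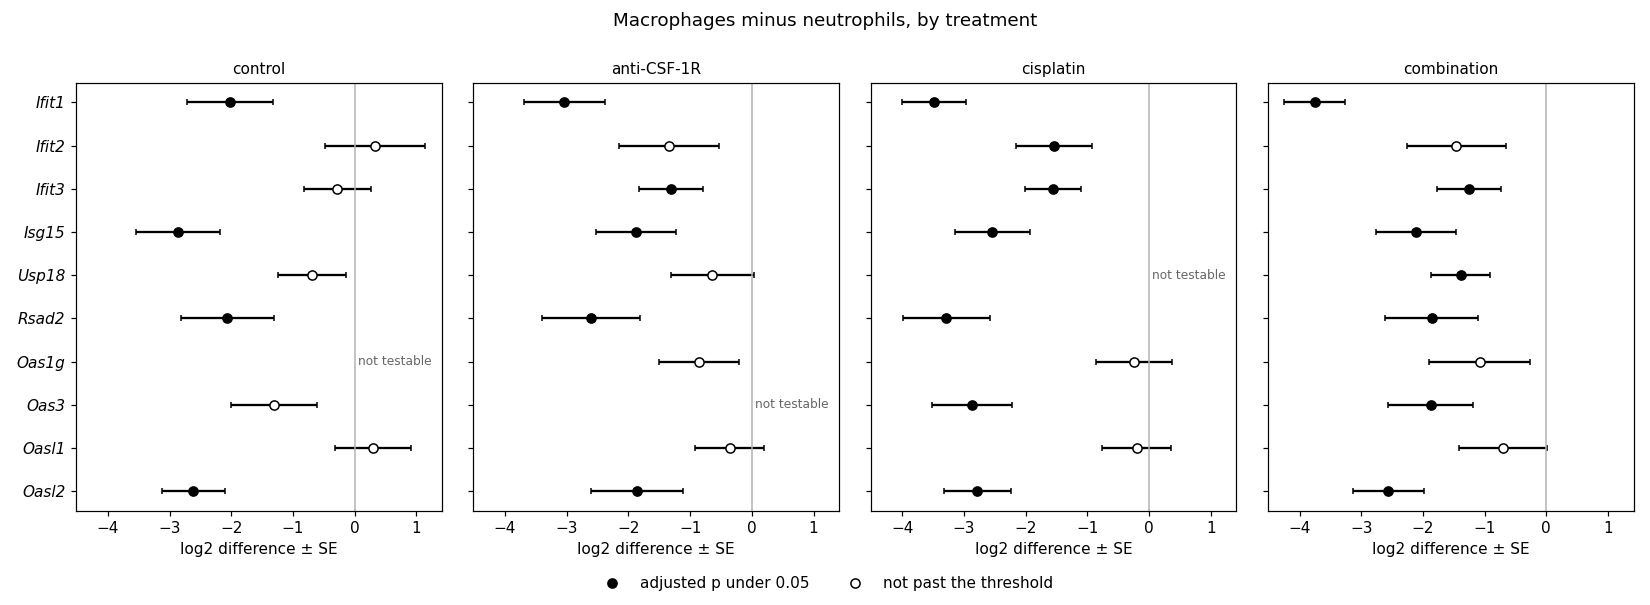
Log2 difference ± SE (limma) between macrophages and neutrophils for each gene under each treatment; filled points passed an adjusted p of 0.05 and negative values are lower in macrophages. Filled points number 4, 5, 7 and 7 from left to right, all left of 0.

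Whether the effect of adding anti-CSF-1R to cisplatin differed between the cell types was tested directly. Of 9 genes 0 passed (limma, 0 at an unadjusted p below 0.05, 0 by limma-voom), with log2 differences from -0.84 to 1.43 and 0.0513% of all genes passed. Nor did the effect of anti-CSF-1R with cisplatin differ past the threshold from that without it. In macrophages 0 of 9 passed (limma, 2 at an unadjusted p below 0.05, 0 by limma-voom, 0.0112% of all genes), and in neutrophils 0 of 8 (limma, 1 at an unadjusted p below 0.05, 0 by limma-voom, 0%). A p above the threshold does not show that the effects were alike.

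Some neutrophil libraries were high in many of the 10 genes at once. Shares over all genes were not counted for the library orders that follow, so they are not particular to these genes as far as is known. Combination replicate 2, which stood apart on the first principal component, was the highest of the 4 combination neutrophil libraries in 10 of 10 genes at every place. Replicate 3 was the lowest in 7. Cisplatin neutrophil replicate 1 was the highest of 3 in 7 genes and replicate 2 the lowest in 5. In combination macrophages replicate 1 was higher in 6 genes (Ifit1, Ifit2, Ifit3, Usp18, Oasl1 and Oasl2) and replicate 2 in 3 (Isg15, Rsad2 and Oas3). Per kilobase of exon, Isg15 had the highest median normalised count of the 10 in combination neutrophils (1609), followed by Rsad2 (1205), Ifit1 (673) and Oasl2 (564), and Oas1g had the lowest (94.9). In combination macrophages Isg15 (388) and Rsad2 (379) were also highest per kilobase, ahead of Ifit3 (129) and Ifit2 (127). Ifit1, the third of the 10 in neutrophils, was among the lowest 3 in macrophages at 54.7 per kilobase.

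Of 57 other genes of the pathway listed for this description, 50 were in the table. The ligands Ifnb1, Ifna4 and Ifng were among those not in the table, so their levels could not be examined. In combination neutrophils against control 6 of 50 rose and none fell, where 0.581% of all genes rose, with 48 of 50 positive and a median log2 fold change of 1.27. These were the RNA sensor Ddx58 (819 ± 278, SD, n = 4, against 208 ± 138, SD, n = 4), the ISG15 ligase Herc6, the OAS family genes Oas1b and Oas2, the membrane protein Ifitm3 (4164 ± 1561, SD, n = 4, against 1182 ± 763, SD, n = 4) and Parp14. In combination macrophages against control 6 of 49 rose (median 1.11, where 1.26% of all genes rose): the transcription factor Irf1, Ddx58, Cmpk2, Rtp4, Parp14 and Samd9l. Cmpk2, a nucleotide kinase that neighbours Rsad2, stood at 131 ± 19.8 (SD, n = 2) against 22.3 ± 18.6 (SD, n = 4), with a log2 fold change of 2.78 ± 0.49 (SE, adjusted p = 0.00965, limma). Against cisplatin only Rtp4 of 49 rose (1.69 ± 0.39 SE, adjusted p = 0.0493, limma; median 0.91), and this call was lost in 6 of 9 other settings and in 5 of 6 fits without 1 library. With anti-CSF-1R alone, the ISG15 ligase Trim25 rose in macrophages, 1 of 49 (0.97 ± 0.25 SE, adjusted p = 0.0496, limma), but the call was lost in all 9 settings that kept every library (adjusted p from 0.0518 to 0.171) and without anti-CSF-1R replicate 2 (0.59, adjusted p = 0.484). The 6 neutrophil calls on pathway genes were all lost without the 2 libraries that stood apart and in 6 of 8 fits that left out 1 library. Of the 10 other settings, Parp14 was lost in 8, Herc6 in 7, Oas2 and Ifitm3 in 6, Oas1b in 5 and Ddx58 in 4. The 6 macrophage calls against control were lost without either combination library.

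Between the cell types, 20, 19, 23 and 23 of the 50 were lower in macrophages in control, anti-CSF-1R, cisplatin and combination, where 24.6%, 21.2%, 27.3% and 23.7% of all genes were. In the same order 8, 6, 9 and 5 of the 50 were higher in macrophages, where 26.2%, 21.1%, 29% and 22.4% of all genes were. Those lower under all 4 treatments included the kinases Jak1 and Jak2, Irf1, Oas1b, Oas2 and Cmpk2. Tlr3, Tlr7 and Mavs, which sense RNA or relay that signal, were higher in macrophages under all 4. The genes whose pattern was most like the mean of the 10 were taken from those with a certain value in every library of a cell type. In the 12 macrophage libraries these were Oas1a (Pearson r = 0.983), Helz2 (0.961), Dtx3l (0.959), Gm8801 (0.958) and Fcgr1 (0.952), of 6821 genes compared. In the 15 neutrophil libraries they were Znfx1 (0.973), Tor1aip1 (0.968), Trim30a (0.964), Epsti1 (0.960) and Slfn5 (0.957), of 5478. These correlations describe libraries that share their treatments and depth.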

How the data were processed

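RNA-seq was measured in sorted tumour neutrophils (15 libraries) and macrophages (12). Per the labels' protocols, 10 ng of total RNA was amplified with Ovation RNA-seq V2 and prepared with Encore Rapid. The build was mm10 and the tools named were TopHat2 2.0.11, CASAVA 1.8, DESeq2, R 3.3.1 and Partek 6.6, per the submitters' processing notes. The authors deposited 1 table of 9996 genes with a signal per library, read counts divided by a size factor, with a lowest listed value of 1. Use of strand in counting is not given.

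Of 269892 values, 91.1% had a form that can have lost its decimal point, and 67.1% had several whole-read places. The worth of 1 read was taken from values of 1000 or more, and 99.8% of the 6865 values with 4 digits before the point came within 0.02 reads of a whole number. A negative binomial model over the groups chose among places, and values with a probability under 0.95 were left out (4.82%). Sums of markers kept such values at their most probable place. Depth was counted as restored reads, and depth limits low values most.

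The log2 of value plus 1 was fitted with limma 3.58.1 (R 4.3.3, trend, two-sided) over the 4 groups of a cell type, or all 8 groups between cell types, keeping genes at 10 or more in at least 2 libraries. P-values were Benjamini-Hochberg adjusted over all genes tested, with a threshold of 0.05. Fold changes are on that scale and are understated for low genes. With 1 certain value in a group, its spread is taken from the other groups. GENCODE vM21 and RefSeq promoter windows were used with pandas 2.3.3, scipy 1.17.1, numpy 2.4.6 and matplotlib 3.10.9 under Python 3.11.15. The fitting scripts were tested on simulated data. The members, marker and pathway lists were chosen with earlier results of these data known. All 10 members are named, and the pathway genes named are among those that passed. Some items are not reported here. The 5 genes most like the mean of the members in each cell type were named by Pearson's r. Alternatives are given with their effect in the closing section. Replicate numbers are in accession order and carry no pairing.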

Additional observations from a re-analysis of the deposited data

How the results depend on the processing

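Over all settings, 1005 values were recomputed for the 62 named gene and comparison pairs. Of these, 816 had the same direction and side of the threshold, 168 no longer passed, 14 newly passed and 7 changed sign. The 62 include pairs that did not pass, which count as the same where they stayed so. Only called pairs could be among the 168, so the share of calls lost is larger than 168 of 1005. The sign changes, all in combination macrophages, were Oas1g against cisplatin (-0.23) and control (-0.30), both at the most probable place for every value and at the lowest place of uncertain values, Oasl1 against cisplatin (-0.34, most probable place) and control (-0.29 without control replicate 1, in a range up to 1.94 without 1 library), and Usp18 against control (-0.66, highest place). Placing uncertain values at their lowest or highest place and leaving out the 2 libraries that stood apart were chosen after seeing the data, and the other settings were planned.

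Members called in macrophages, combination against cisplatin (4), numbered 1 at the most probable place, 1 with no filter, 1 with places restored without the groups, and 0 at the highest or lowest place. Combination against control (2) gave 0 at the highest and 1 at the lowest place, anti-CSF-1R against control (1) gave 0 at both, and cisplatin against control (0) gave 1 at the most probable place. In neutrophils, combination against control (5) gave 3 by limma-voom, 1 with places restored without the groups, and 0 at the highest place, at the lowest place and without the 2 libraries that stood apart. Combination against cisplatin (0) gave 1 at the most probable place. Between cell types, anti-CSF-1R (5) gave 3 after rescaling and at the highest and lowest place. The combination (7) gave 4 at the most probable place, 2 at the highest place, 1 at the lowest and 3 without the libraries that stood apart. Leaving out 1 library gave 0 to 7, 1 to 6, 0 to 8, 2 to 5, 1 to 5 and 2 to 7 members for macrophage combination against cisplatin and control, neutrophil combination against control, and the cell types in control, anti-CSF-1R and combination. It gave 0 to 1 for neutrophil anti-CSF-1R against control.

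Over all genes, macrophage combination against cisplatin called 279, but 551 with only the groups compared, 176 with no filter, 127 with places restored without the groups and 106 at the highest place, and 5 to 489 without 1 library. Macrophage combination against control called 233, but 123, 93 and 91 with only the groups compared, without the groups and at the highest place, and 12 to 569 without 1 library. Neutrophil combination against control called 61, but 32 with no filter, 11 by limma-voom, 6 without the groups and 1 at either place or without the libraries that stood apart, and 1 to 122 without 1 library. The cause of these shifts was not tested. No paired analysis was possible because the labels number no replicates. Uncertain places, most common in control libraries, and groups of 2 macrophage libraries limit what these calls can show.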
